A study of Homo sapiens with 15 samples.

Results

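The genes described here are 33 genes of the interferon response and of MHC class I antigen presentation, chosen by name and not by their values, of 21493 genes counted in RNA of NCI-H295R cells. NCI-H295R is a human adrenocortical carcinoma cell line that makes steroid hormones. The study sequenced 15 libraries of these cells to ask which genes follow NFATC4, a transcription factor activated by calcineurin. Cells labelled wild type were transfected with the plasmid pcDNA3.T7 carrying delta-NFAT3, a constitutively active form of NFATC4 without its N-terminal domain (ActiveNFATc4, 3 libraries), or with the plasmid pcDNA3.T7 alone (Mock, 4 libraries), and RNA was taken 3 days later. Cells labelled NFATc4 knock-out (NFATc4-KO, 4 libraries numbered 1, 2, 3 and 5) were grown as single-cell clones after transfection of Cas9 plasmids with a pair of guides against exons of NFATC4. Cells labelled wild type and KO control (Control, 4 libraries numbered 1 to 4) had received empty plasmids in parallel with them, and for both of these groups the labels give no treatment and no time since transfection. Which libraries came from 1 clone, and whether same-numbered libraries share a day, is not given in the sources used here. No source used here ties each library to a culture of its own, and p values rest on the spread among the libraries as sequenced. A library held 18.8 to 28.2 M counts. Levels are counts scaled to library size (CPM, after TMM normalisation), and a count of 0 allows up to 3 counts in a library (0.108 to 0.157 CPM), a limit that covers counting error alone.

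In the interferon response, a cell senses foreign nucleic acid with receptors such as RIG-I and MDA5, secretes interferon, and answers interferon through receptors that activate JAK kinases and STAT factors. A complex of STAT proteins with IRF9 then binds interferon-stimulated response elements (ISRE) in the promoters of target genes, and STAT dimers bind gamma-activated sites (GAS). The targets include enzymes and membrane proteins that block viruses and the machinery that displays peptides on MHC class I molecules at the cell surface. Most nucleated cells carry MHC class I, and tumor cells need it to be recognised by cytotoxic T cells.

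The libraries labelled Control and NFATc4-KO fell into sets by their number rather than by their label, and that split was found in these data. Numbers 1 and 2 of both labels made up 4 libraries and the higher numbers (Control 3, Control 4, NFATc4-KO 3 and NFATc4-KO 5) the other 4, so comparisons between these sets are descriptions with no test. NFATC4 itself was 343 ± 14.6 CPM in ActiveNFATc4 (SD, n = 3) and 94.6 ± 7.75 CPM in Mock (SD, n = 4). It was 80.8 ± 36.4 CPM in Control (SD, n = 4) and 72.3 ± 19.1 CPM in NFATc4-KO (SD, n = 4), with 84.8 to 115 CPM in the libraries numbered 1 and 2 and 45.0 to 58.2 CPM in those with higher numbers. Among numbers 1 and 2, NFATC4 was 92.2 and 84.8 CPM in NFATc4-KO and 115 and 109.6 CPM in Control. It was lower there by 0.33 on the log2 scale (SE 0.09, adjusted p = 0.0391, edgeR). Among the higher numbers NFATC4 was not lower under the NFATc4-KO label. It was 58.2 and 53.8 CPM in NFATc4-KO 3 and 5 and 45.0 and 54.1 CPM in Control 3 and 4, and was not called. Over both sets the labels overlapped and NFATC4 did not pass (−0.08 ± 0.06, SE, adjusted p = 0.446, edgeR). The paper shows NFATC4 protein by immunoblot in control and NFATC4-KO cells. Directions below are those of the libraries labelled NFATc4-KO and Control.

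Promoters of 27 of the 33 genes were found in RefSeq (GRCh38.p14), as 250 bases before and 50 bases after the start of each gene. IFIT2, MX2, OAS2, OASL, IRF7 and IFITM2 had no entry. The 170 bases before the start are shown for MHC class I genes that differed most between the libraries and for interferon targets that did and did not, so that the response elements of both can be read beside their levels. Capitals mark matches, on either strand, to the ISRE core written GAAANNGAA, to a second pattern written GAANNGAAA or to the GAS written TTCNNNGAA.
B2M (chr15:44711347-44711516, plus strand): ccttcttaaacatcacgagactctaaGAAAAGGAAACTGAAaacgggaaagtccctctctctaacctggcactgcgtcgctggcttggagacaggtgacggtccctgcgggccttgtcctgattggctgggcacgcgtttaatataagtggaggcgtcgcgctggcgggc
HLA-B (chr6:31357180-31357349, minus strand): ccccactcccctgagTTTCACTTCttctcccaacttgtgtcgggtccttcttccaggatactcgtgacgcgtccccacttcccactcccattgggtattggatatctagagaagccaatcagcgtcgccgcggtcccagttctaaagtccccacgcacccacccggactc
HLA-C (chr6:31272093-31272262, minus strand): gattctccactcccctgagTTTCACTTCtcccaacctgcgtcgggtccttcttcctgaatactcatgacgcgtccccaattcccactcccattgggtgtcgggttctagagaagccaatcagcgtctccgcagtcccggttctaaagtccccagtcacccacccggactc
TAP1 (chr6:32853705-32853874, minus strand): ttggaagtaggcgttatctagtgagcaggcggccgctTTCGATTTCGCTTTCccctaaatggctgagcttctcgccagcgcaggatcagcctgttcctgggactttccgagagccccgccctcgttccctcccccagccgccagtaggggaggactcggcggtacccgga
PSMB9 (chr6:32854022-32854191, plus strand): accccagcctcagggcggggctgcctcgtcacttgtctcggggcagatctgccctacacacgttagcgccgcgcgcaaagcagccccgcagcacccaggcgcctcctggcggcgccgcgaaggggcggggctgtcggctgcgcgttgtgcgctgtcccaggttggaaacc
IFI6 (chr1:27672193-27672362, minus strand): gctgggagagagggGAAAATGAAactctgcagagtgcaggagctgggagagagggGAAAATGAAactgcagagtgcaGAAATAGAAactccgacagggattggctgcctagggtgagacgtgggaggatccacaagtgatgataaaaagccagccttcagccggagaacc
IFI27 (chr14:94110566-94110735, plus strand): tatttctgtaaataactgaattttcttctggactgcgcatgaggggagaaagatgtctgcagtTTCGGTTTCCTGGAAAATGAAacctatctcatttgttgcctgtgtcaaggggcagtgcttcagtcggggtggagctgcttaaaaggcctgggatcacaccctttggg
IFIT1 (chr10:89392453-89392622, plus strand): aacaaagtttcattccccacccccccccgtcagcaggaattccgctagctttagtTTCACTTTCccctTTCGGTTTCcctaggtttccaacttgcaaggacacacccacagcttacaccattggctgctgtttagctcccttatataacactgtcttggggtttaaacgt
ISG15 (chr1:1013327-1013496, plus strand): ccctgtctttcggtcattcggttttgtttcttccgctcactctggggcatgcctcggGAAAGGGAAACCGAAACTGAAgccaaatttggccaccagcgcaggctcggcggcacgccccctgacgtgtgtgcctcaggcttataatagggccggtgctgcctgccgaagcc
In the full windows GAAANNGAA was found in 17 of the 27 promoters, against 8.11% of all 35116 promoters of the same length. GAANNGAAA is a different pattern, with its repeats closer together, and can overlap the first. It was found in 11 of 27, against 7.66% of all promoters, and 1 or both patterns in 23 of 27, against 14.5%. GAS matches were found in 7 of 27, against 7.66%. B2M, TAP1 and IFI6 had GAAANNGAA in the windows shown, as did IFIT1 and ISG15. HLA-B and HLA-C each had the second pattern at nearly the same distance from the start. In IFI27 a GAS match lay between GAAANNGAA matches on opposite strands. PSMB9, whose start lies head to head with that of TAP1, had no match, nor had PSMB8 and STAT2. A match is a description of these letters only, and no binding was measured.

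Of the 33 genes, 31 passed the filter on low counts and were tested. IRF7, the factor that amplifies type I interferon production, had no count in any library, and MX2, a dynamin-like antiviral GTPase, had 0 to 3 counts in each. All other genes but IFITM2 and IFITM3 were above 3 counts in every library, and 20 genes averaged over 10 CPM. Per kilobase of exon, with the exons of all annotated transcripts merged, B2M was the most abundant of the 33 in every group, with group means of 253 to 496 CPM per kb. BST2 followed with 112 to 150 CPM per kb. HLA-C had group means of 58.7 to 119 CPM per kb and HLA-B of 39.6 to 102 CPM per kb. The merged lengths were 1.10 kb for BST2, 2.51 kb for HLA-C and 4.62 kb for HLA-B, and the order of these 3 depends on the length used. The 33 genes together took 0.304 to 0.324% of the counts in ActiveNFATc4, 0.250 to 0.303% in Mock, 0.169 to 0.182% in the libraries of Control and NFATc4-KO numbered 1 and 2, and 0.175 to 0.179% in those with higher numbers. The shares of ActiveNFATc4 and Mock, called transfected libraries below, did not overlap those of the other libraries. Cells of the other libraries had also received plasmids, at a time not given. B2M, HLA-B and HLA-C made up most of these counts, with 40693, 11945 and 7477 of 79527 in ActiveNFATc4 1, so the shares mainly follow these 3 genes.

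**Figure D1:**
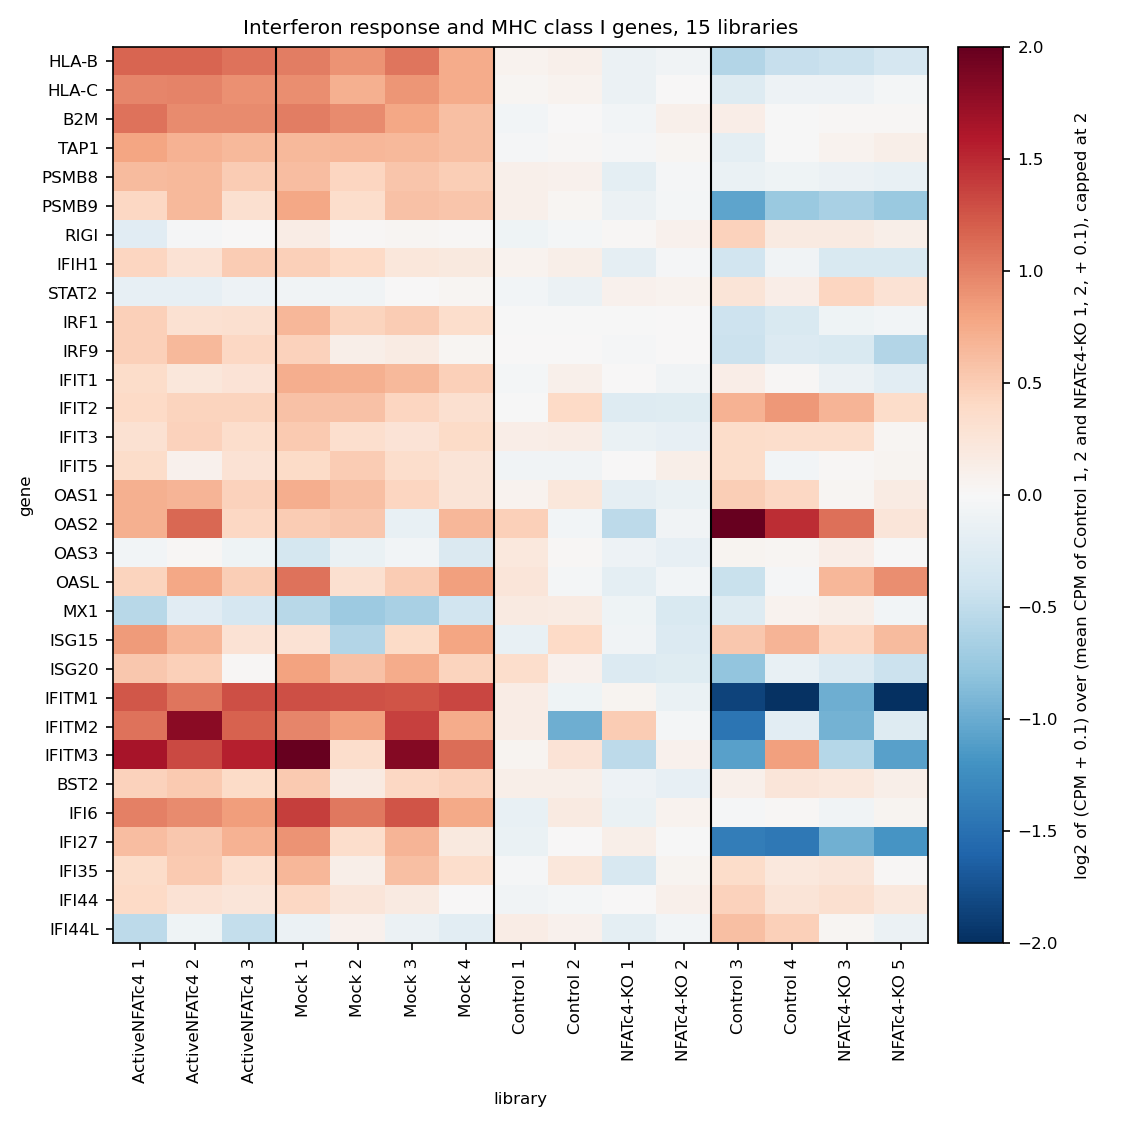
Each row is 1 of the 31 tested genes, ordered by role, and each column 1 library. Color gives the log2 ratio of the level (CPM with 0.1 added) to the mean of Control 1, Control 2, NFATc4-KO 1 and NFATc4-KO 2, capped at 2. The 6 MHC class I genes at the top are red in all 7 libraries of ActiveNFATc4 and Mock, while PSMB9, IFI27 and IFITM1 are blue in the libraries of Control and NFATc4-KO with higher numbers.

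RNA of MHC class I genes was higher in Mock than in Control. All 6 were called higher (edgeR quasi-likelihood test, adjusted p under 0.05), with a median log2 fold change of 0.85 and a range of 0.53 to 1.16. Over all 14522 genes tested the median was 0.02, and 28.8% were called higher and 26% lower, so Mock and Control differed in a large part of the transcriptome. B2M, the light chain common to all MHC class I molecules, was 1646, 1500.3 and 1499.7 CPM in ActiveNFATc4. It was 1588, 1494, 1324 and 1176 CPM in Mock 1 to 4. In Control and NFATc4-KO with numbers 1 and 2 it was 749.9, 779, 747 and 832 CPM, and with higher numbers 855, 775, 789 and 789 CPM. Every transfected library was above every other library, and the sets of Control and NFATc4-KO overlapped. B2M was higher in Mock than in Control by 0.82 ± 0.07 on the log2 scale (SE, adjusted p = 2.28e-09, edgeR).

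HLA-B, a heavy chain of the peptide-presenting complex, was 483, 479 and 457 CPM in ActiveNFATc4 and 436, 398, 452 and 359 CPM in Mock. It was 224, 230.0, 198 and 205 CPM in Control 1, Control 2, NFATc4-KO 1 and NFATc4-KO 2, and 142, 155, 159 and 170.2 CPM in Control 3, Control 4, NFATc4-KO 3 and NFATc4-KO 5. These 3 levels did not overlap, with the transfected libraries highest and the libraries with higher numbers lowest. HLA-B was higher in Mock than in Control by 1.16 ± 0.06 on the log2 scale (SE, adjusted p = 2.93e-14, edgeR), the largest of the 6 MHC class I genes. HLA-C, the heavy chain that also engages receptors of natural killer cells, was 302, 305 and 289.8 CPM in ActiveNFATc4 and 293, 251, 282 and 256 CPM in Mock, with 128 to 161 CPM in the other 8 libraries. Its log2 fold change of Mock over Control was 0.88 ± 0.05 (SE, adjusted p = 1.63e-12, edgeR). Reads of HLA genes were counted against the reference alleles, not those of the cell line. Set against each other and against HLA-E, HLA-F and HLA-G, no 100-base window of the canonical transcript of HLA-B or HLA-C was shared, and other HLA genes were not compared here.

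The genes that make and move peptides were higher in the transfected libraries too. TAP1, a subunit of the transporter that carries peptides into the endoplasmic reticulum, was 58.5, 54.98 and 53.6 CPM in ActiveNFATc4, 53.5, 53.8, 53.4 and 51.8 CPM in Mock and 29.7 to 36.8 CPM in the other 8 libraries. Its log2 fold change of Mock over Control was 0.70 ± 0.06 (SE, adjusted p = 2.57e-10, edgeR). PSMB8, a catalytic subunit of the immunoproteasome, ranged from 58.1 to 67.6 CPM in the transfected libraries and from 37.9 to 46.5 CPM in the others, with a log2 fold change of 0.53 ± 0.06 (SE, adjusted p = 3.33e-08, edgeR). PSMB9, another catalytic subunit of the immunoproteasome, was 16.6, 19.5 and 15.5 CPM in ActiveNFATc4 and 21.2, 15.8, 18.7 and 18.3 CPM in Mock. It was 13.3, 12.7, 11.4 and 12.1 CPM in the libraries of Control and NFATc4-KO numbered 1 and 2 and 5.88, 7.34, 7.90 and 7.37 CPM in those with higher numbers. As for HLA-B, these 3 levels of PSMB9 did not overlap. Against the Control libraries numbered 1 and 2 the log2 fold change of Mock was 0.51 ± 0.11 and against those with higher numbers 1.49 ± 0.13 (SE, adjusted p = 0.000983 and 3.32e-10, edgeR).

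**Figure D2:**
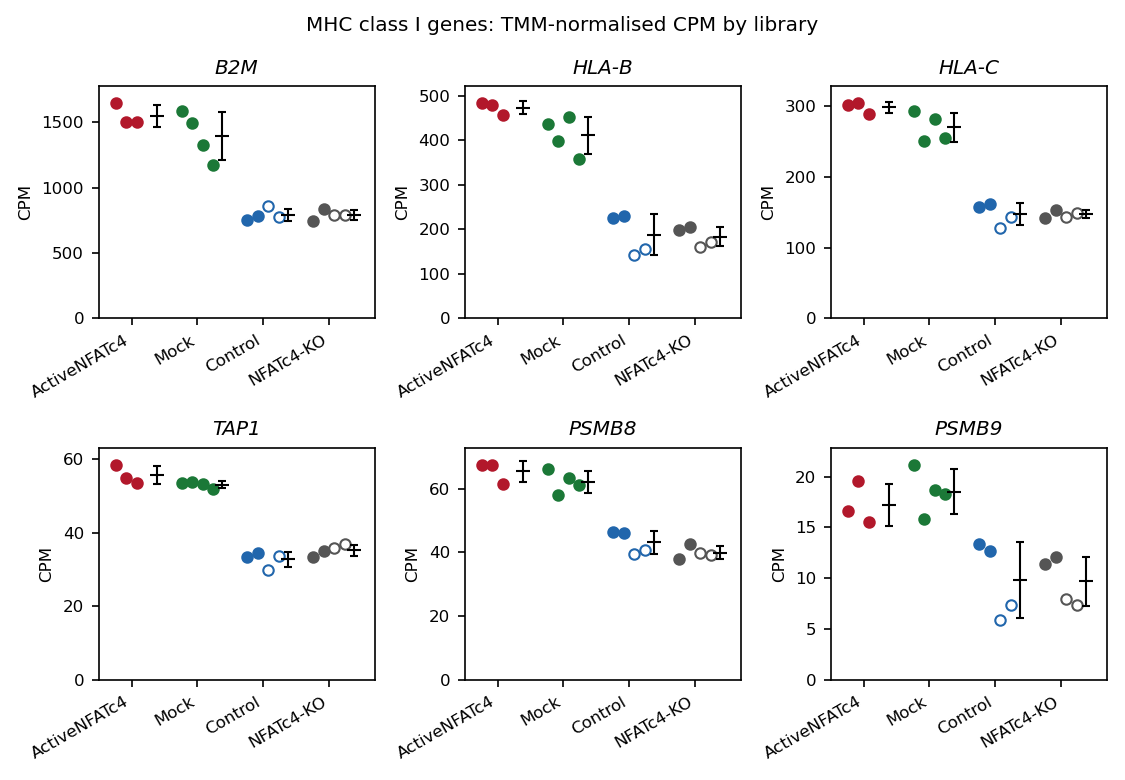
Levels in CPM (y axes, from 0) of 6 MHC class I genes in each library of the 4 groups (x axes). Each circle is 1 library, open circles are Control and NFATc4-KO libraries numbered 3 and above, and the bar beside each group is the mean ± SD (n = 3 or 4). All 7 libraries of ActiveNFATc4 and Mock lie above all 8 libraries of Control and NFATc4-KO in each panel, and the open circles lie below the filled ones for HLA-B and PSMB9.

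Among all 31 tested genes, 20 were called higher and 3 lower in Mock than in Control, with a median log2 fold change of 0.39. Over all genes, 28.8% were called higher and 26% lower. IFITM2 and IFITM3 are included in the 20 and in the counts below, although they passed the filter only through transfected libraries. The difference was not shared by the whole interferon response. The membrane proteins that restrict virus entry or release were all called higher, and 2 of 4 IFIT genes, 2 of 4 OAS genes, 2 of 3 signal and transcription factors, 2 of 5 IFI genes, 1 of 2 sensors and ISG20 of the pair ISG15 and ISG20 also were. Against the Control libraries numbered 1 and 2 alone, 18 genes were called higher and 2 lower, with 18.1% and 20.1% of all genes. Against the Control libraries with higher numbers, 18 were called higher and 7 lower, with 30% and 27.6% of all genes. Of these, 14 were higher in both, namely all 6 MHC class I genes and IFIT1, IRF1, IFI6, IFI27, IFITM1, IFITM2, IFITM3 and BST2, and MX1 and OAS3 were lower in both. The 2 comparisons use the same Mock libraries, and the share of all genes called alike in both was not computed. The overlap is thus given as a list of genes and not as a result about them as a set. Mock, grown and transfected in the overexpression experiment, and Control, from the knockout experiment, differ in plasmid and experiment, which cannot be told apart, and no time since transfection is given for Control.

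Of the genes that mark the other cell types a culture could hold, the endothelial genes PECAM1, VWF and CDH5 were at 0 to 0.283 CPM in sum. The leukocyte genes PTPRC, CD3E, CD14 and ITGAM summed to 1.17 to 2.20 CPM in transfected libraries, 1.05 to 1.16 CPM in the libraries numbered 1 and 2 and 0.389 to 1.077 CPM in those with higher numbers, and PTPRC and CD3E had at most 0.0860 and 0.0524 CPM. The fibroblast list (PDGFRA, DCN and LUM) summed to 0.826 to 1.86, 0.446 to 0.964 and 0.0918 to 0.259 CPM in the same sets. The 8 adrenocortical genes (NR5A1, STAR, CYP11A1, CYP17A1, CYP21A2, HSD3B2, FDX1 and MC2R) were detected in every library, and their sum was 2109 to 2451 CPM in transfected libraries, 1545 to 2239 CPM in the libraries numbered 1 and 2 and 1099.6 to 1314 CPM in those with higher numbers. Counts of mitochondrially encoded genes took 11.1 to 13.1%, 9.71 to 10.46% and 8.82 to 10.3% of these libraries. These values move with the differences between Mock and Control, and their part in them was not tested. In bulk RNA, fewer cells that express a gene and less RNA per cell cannot be told apart.

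**Figure D3:**
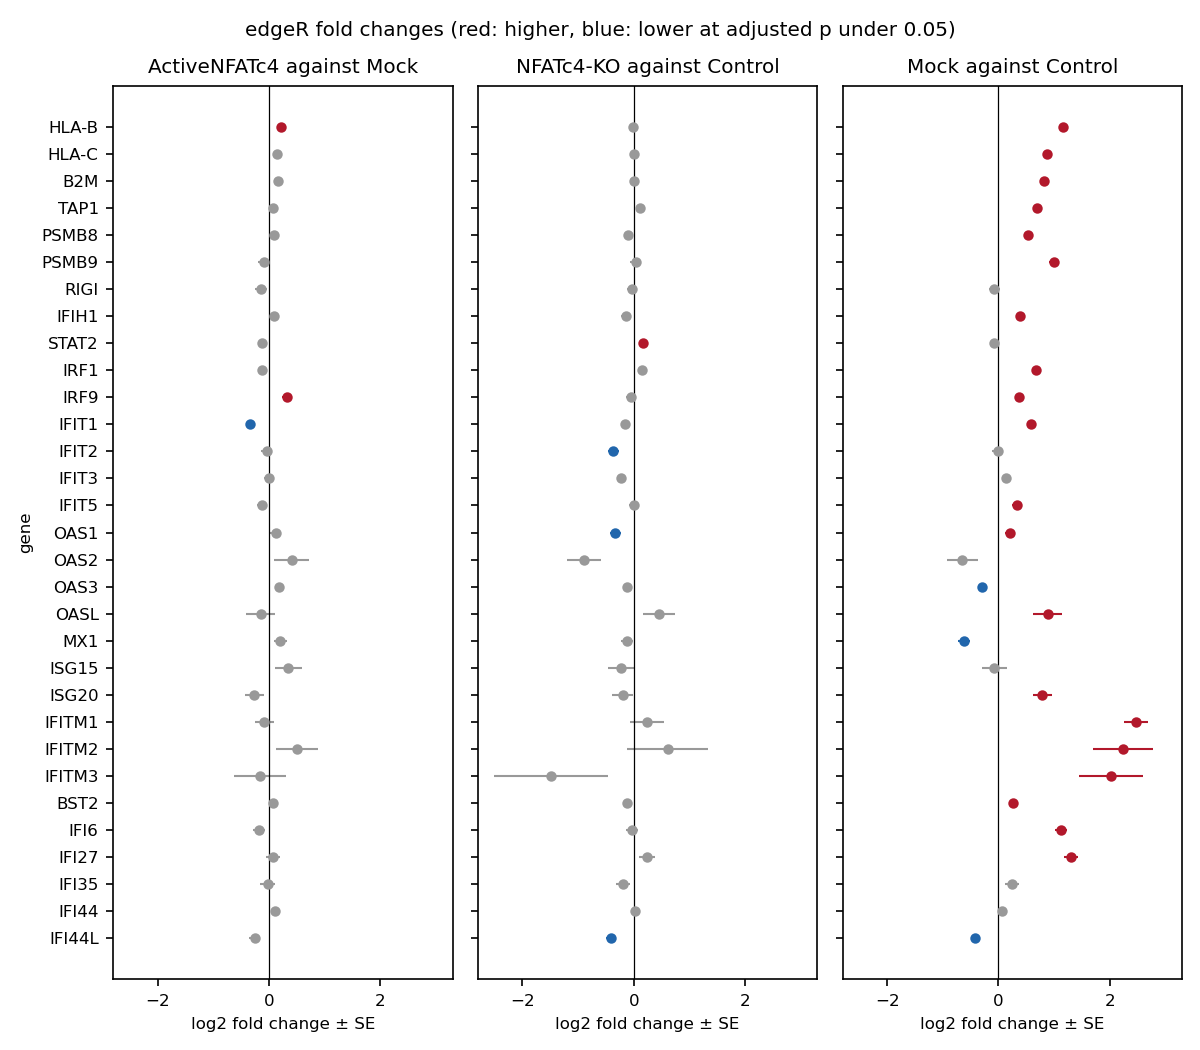
Log2 fold changes ± SE (x axes) of the 31 tested genes (y axis) in ActiveNFATc4 against Mock, NFATc4-KO against Control and Mock against Control. Red and blue mark genes called higher and lower by edgeR at an adjusted p under 0.05, and gray marks the rest. In Mock against Control 20 genes are red and 3 blue, whereas in the other comparisons 3 and 4 genes are colored.

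Among the effectors, IFI6, a mitochondrial protein that protects cells from apoptosis and blocks flavivirus replication, was 28.5, 27.4 and 25.5 CPM in ActiveNFATc4 and 37.03, 29.7, 34.1 and 24.02 CPM in Mock. It was 12.8, 16.1, 12.9 and 14.9 CPM in the libraries of Control and NFATc4-KO numbered 1 and 2 and 13.9, 14.4, 13.6 and 14.7 CPM in those with higher numbers. The transfected libraries lay above the others, and the other 2 sets overlapped. IFI6 was higher in Mock than in Control by 1.12 ± 0.11 on the log2 scale (SE, adjusted p = 1.01e-08, edgeR), with 1.10 ± 0.13 against the Control libraries numbered 1 and 2 and 1.14 ± 0.13 against the rest (SE). IFIT1, which binds foreign RNA that lacks the methylation of a host cap, was 29.5, 26.8 and 27.7 CPM in ActiveNFATc4, 37.9, 37.5, 35.9 and 31.6 CPM in Mock and 19.6 to 24.96 CPM in the other 8 libraries. Its log2 fold change of Mock over Control was 0.59 ± 0.07 (SE, adjusted p = 8.73e-08, edgeR). BST2, or tetherin, which holds budding viruses at the cell surface, was 167, 173 and 157 CPM in ActiveNFATc4 and 174, 137, 159.9 and 165 CPM in Mock, against 131, 131, 113 and 108 CPM in the libraries numbered 1 and 2 and 129, 143, 139.8 and 131 CPM in those with higher numbers. The lowest Mock library lay below the highest of the latter. The log2 fold change of BST2 was 0.26 ± 0.06 (SE, adjusted p = 0.000829, edgeR).

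The IFITM genes, whose proteins hinder the fusion of virus and cell membranes, were near the detection limit. IFITM1 had 74, 61 and 59 counts in ActiveNFATc4 and 70, 71, 64 and 89 in Mock. It had 33, 29, 26 and 26 counts in the libraries of Control and NFATc4-KO numbered 1 and 2 and 6, 5, 13 and 4 in Control 3, Control 4, NFATc4-KO 3 and NFATc4-KO 5. These 3 levels did not overlap, and the log2 fold change of Mock was 1.32 ± 0.22 over the Control libraries numbered 1 and 2 and 3.63 ± 0.32 over the rest (SE, adjusted p = 4.8e-05 and 5.8e-10, edgeR). IFITM2 had 9 to 20 counts in the transfected libraries and 0 to 6 in the others, with 3 counts or fewer in 5 of these. IFITM3 had 4 to 26 counts in the transfected libraries and 0 to 6 in the others, with 3 or fewer in 6. Both passed the filter on low counts only through transfected libraries, so a higher level there was partly fixed by the filter. They were called higher in Mock than in Control, with adjusted p of 0.00119 and 0.00441 (edgeR), but these calls do not count as support. Their fold changes in the plot of log2 fold changes rest on these few counts. IFITM1 shares 42 of 569 windows of 100 bases with IFITM3, so their reads could be split between them.

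Of the factors that carry the signal, IRF1 and IRF9 were called higher in Mock and STAT2 was not. IRF1, a factor downstream of interferon gamma that acts on MHC class I genes, was 27.99, 25.04 and 25.2 CPM in ActiveNFATc4, 32.1, 27.5, 28.6 and 25.9 CPM in Mock, 20.1, 20.2, 20.1 and 20.3 CPM in the libraries of Control and NFATc4-KO numbered 1 and 2 and 15.2, 16.4, 19.00 and 19.4 CPM in those with higher numbers. The 3 sets did not overlap, and the log2 fold change of Mock over Control was 0.68 ± 0.07 (SE, adjusted p = 1.87e-08, edgeR). IRF9, the partner of STAT2 that contacts DNA, had a log2 fold change of 0.38 ± 0.08 (SE, adjusted p = 0.000553, edgeR), with 0.20 ± 0.10 against the Control libraries numbered 1 and 2 and 0.56 ± 0.11 against the rest (SE, adjusted p = 0.133 and 9.02e-05, edgeR). STAT2 was 69.6, 69.6, 73.3 and 74.6 CPM in Mock, 70.1 and 67.1 CPM in Control 1 and 2 and 87.3 and 80.00 CPM in Control 3 and 4. Its log2 difference between Mock and Control was −0.08 ± 0.05 (SE, adjusted p = 0.235, edgeR), with 0.06 ± 0.07 against the Control libraries numbered 1 and 2 and a call of lower, by −0.22 ± 0.06, against the rest (SE, adjusted p = 0.461 and 0.00603, edgeR). IFIH1, the gene of the RNA sensor MDA5, was 15.5 to 19.4 CPM in transfected libraries and 10.3 to 14.7 CPM in the others, and was higher in Mock by 0.39 ± 0.09 on the log2 scale (SE, adjusted p = 0.000408, edgeR), but was not called against the Control libraries numbered 1 and 2 (0.23 ± 0.10, SE, adjusted p = 0.0790, edgeR). RIGI, the gene of the sensor RIG-I, was 5.90 to 7.62 CPM in transfected and 6.53 to 9.56 CPM in the other libraries, which overlapped. In Mock it was called lower against the Control libraries with higher numbers alone.

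Several classical interferon targets were not called higher in Mock. ISG15, a ubiquitin-like protein that is among the most inducible targets, was 2.39, 2.06 and 1.57 CPM in ActiveNFATc4, 1.58, 0.815, 1.69 and 2.26 CPM in Mock, 1.14, 1.71, 1.21 and 1.04 CPM in the libraries of Control and NFATc4-KO numbered 1 and 2 and 1.90, 2.11, 1.73 and 2.02 CPM in those with higher numbers. Its log2 difference between Mock and Control was −0.07 ± 0.23 (SE, adjusted p = 0.804, edgeR). Its promoter, shown above, holds GAAANNGAA in tandem. MX1, which traps viral nucleocapsids, was 6.55, 8.26 and 7.60 CPM in ActiveNFATc4 and 6.57, 5.79, 6.14 and 7.40 CPM in Mock, against 7.78 to 10.99 CPM in the other libraries, and fell by 0.61 on the log2 scale in Mock against Control (SE 0.11, adjusted p = 2.89e-05, edgeR). OAS3, a synthase of the second messenger that activates RNase L, was 70.02, 80.8, 85.5 and 72.8 CPM in Mock and 90.8 to 102.6 CPM in Control. It fell by 0.29 (SE 0.06, adjusted p = 0.000471, edgeR). IFI44L, a paralog of IFI44, fell by 0.41 (SE 0.09, adjusted p = 0.000324, edgeR), with 15.5, 17.8, 15.4 and 14.6 CPM in Mock and 17.8 to 25.4 CPM in Control. Against the Control libraries numbered 1 and 2 it was not called (−0.20 ± 0.11), and against the rest it fell by 0.62 (SE 0.10, adjusted p = 0.142 and 1.72e-05, edgeR). Of the other members, IFIT5, ISG20, OAS1 and OASL were called higher, with log2 fold changes of 0.33, 0.79, 0.22 and 0.89 (adjusted p = 0.00168, 0.000331, 0.0439 and 0.00603, edgeR). None of these was called against both sets of Control libraries, since ISG20 and OASL were called against the higher numbers alone and IFIT5 and OAS1 against numbers 1 and 2 alone. The call of OAS1 was lost in 13 of 26 alternatives, DESeq2 and limma-voom among them, with log2 fold changes of 0.06 to 0.37. IFIT2, IFIT3, OAS2, IFI35 and IFI44 did not pass the test in Mock against Control, averaged over both sets. Against the Control libraries numbered 1 and 2 alone, IFIT3 and IFI44 were called higher. Against those with higher numbers alone, IFIT2 and OAS2 were called lower.

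Set against all 8 other libraries, the 7 transfected libraries lay entirely above in 14 of the 31 genes and entirely below in 0. Over all genes tested, 4.83% lay entirely above and 6.97% entirely below. The 14 were the 6 MHC class I genes, IFIT1, IRF1, IRF9, IFI6, IFI27, IFITM1, IFITM2 and IFIH1. Against the libraries of Control and NFATc4-KO numbered 1 and 2 alone, 19 of the 31 lay entirely above, with 10.1% of all genes, and 0 entirely below, with 12.9%. The added 5 were IFIT3, OAS1, OASL, IFITM3 and BST2. IFITM2 and IFITM3 are included in these counts, although they passed the filter only through transfected libraries. The median log2 change of the 31 genes over these 4 libraries was 0.52 for Mock and 0.48 for ActiveNFATc4, against 0.00 and 0.01 over all genes. The ratio of the means of transfected and all other libraries was 2.36 for HLA-B, 2.12 for IFI27, 2.08 for IFI6, 1.92 for HLA-C, 1.85 for B2M and 1.84 for PSMB9. These are not the largest of the 14, since IFITM1 and IFITM2, with few counts, had larger ratios and are left out.

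ActiveNFATc4 was then compared with Mock, which had received the same plasmid without NFATC4. The groups differed little: IRF9 and HLA-B were called higher and IFIT1 lower, of 31 tested. That is 2 and 1 genes, against 8.77% of all genes called higher and 7.68% lower, and the median log2 fold change was 0.06 for the 31 genes and −0.0029 for all. IRF9 was 32.96, 37.5 and 31.8 CPM in ActiveNFATc4 and 32.9, 25.7, 26.5 and 24.5 CPM in Mock, so that Mock 1 reached the ActiveNFATc4 libraries. It was higher by 0.32 ± 0.09 on the log2 scale (SE, adjusted p = 0.0120, edgeR). HLA-B was higher by 0.21 ± 0.06 (SE, adjusted p = 0.0210, edgeR), and all 3 ActiveNFATc4 libraries lay above the 4 Mock libraries. IFIT1 fell by 0.34 (SE 0.07, adjusted p = 0.00165, edgeR), again without overlap. The other MHC class I genes had log2 differences of −0.10 to 0.16 that did not pass the test in edgeR, while limma-voom called HLA-C and B2M higher as well. In a fit with 4 group means neither IRF9 nor HLA-B was called, and without ActiveNFATc4 replicate 2 or Mock replicate 4 neither was, while without Mock replicate 1 HLA-C and B2M were called in addition.

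In NFATc4-KO against Control, STAT2 was called higher and IFIT2, OAS1 and IFI44L lower of the 31 genes, that is 1 and 3, against 5.67% of all genes called higher and 6.31% lower. The median log2 fold change was −0.05 for the 31 genes and 0.00 for all. IFI44L was 18.5, 17.8, 25.4 and 23.5 CPM in Control 1 to 4 and 14.7, 16.1, 17.3 and 15.5 CPM in NFATc4-KO 1, 2, 3 and 5, without overlap. It fell by 0.41 (SE 0.09, adjusted p = 0.00356, edgeR), with −0.23 ± 0.13 among the libraries numbered 1 and 2 and −0.58 ± 0.12 among the rest (SE). IFIT2, a partner of IFIT1, fell by 0.36 (SE 0.10, adjusted p = 0.0177, edgeR) and OAS1, a sensor of double-stranded RNA, by 0.33 (SE 0.09, adjusted p = 0.0208, edgeR), while STAT2 was higher by 0.16 ± 0.05 (SE, adjusted p = 0.0435, edgeR). The 6 MHC class I genes had log2 differences of −0.11 to 0.11, and 0 were called by edgeR, at an unadjusted p under 0.05, by DESeq2 or by limma-voom. With the replicate number as a block, which uses the libraries numbered 1 to 3, none of the 4 calls held, with an adjusted p of 0.158 for IFI44L, 0.317 for IFIT2, 0.133 for OAS1 and 0.347 for STAT2 (edgeR). Without Control replicate 2, NFATc4-KO replicate 1 or NFATc4-KO replicate 2, IFI44L alone was lower. The comparisons of ActiveNFATc4 with Mock and of Mock with Control share the Mock libraries, and those of NFATc4-KO with Control and of Mock with Control share the Control libraries.

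Between the libraries of Control and NFATc4-KO numbered 1 and 2 and those with higher numbers, the genes differed in both directions. The 4 libraries numbered 1 and 2 lay entirely above the 4 others in 6 of 31 genes, IRF1, IRF9, IFI27, IFITM1, HLA-B and PSMB9, and entirely below in 4, ISG15, STAT2, IFI44 and RIGI. Over all genes the shares were 19% and 18.2%, so members split about as often as other genes did. IFI27, a mitochondrial protein strongly induced by type I interferon, was 7.51, 8.21, 8.92 and 8.20 CPM in the libraries numbered 1 and 2 and 3.07, 2.98, 4.19 and 3.58 CPM in those with higher numbers, a ratio of the means of 2.38. Its level was 12.7, 11.9 and 13.3 CPM in ActiveNFATc4 and 15.4, 10.5, 13.3 and 9.41 CPM in Mock, above both sets. The ratio was 1.74 for PSMB9, 1.37 for HLA-B and 1.31 for IRF9. In the opposite direction, STAT2 was 70.1, 67.1, 77.2 and 76.5 CPM in the libraries numbered 1 and 2 and 87.3, 80.00, 98.4 and 89.00 CPM in those with higher numbers, a ratio of 0.820. IFI44, a protein induced by type I interferon, was 44.1, 44.97, 46.8 and 49.9 CPM and 63.7, 55.4, 57.98 and 54.02 CPM in these sets, a ratio of 0.804. The order held within each label for these genes, with NFATc4-KO and Control libraries of one set side by side. B2M, TAP1, IFI6 and IFIT1, which differed between transfected and other libraries, had ratios of 0.969, 1.00, 1.00 and 1.03 between the sets.

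**Figure D4:**
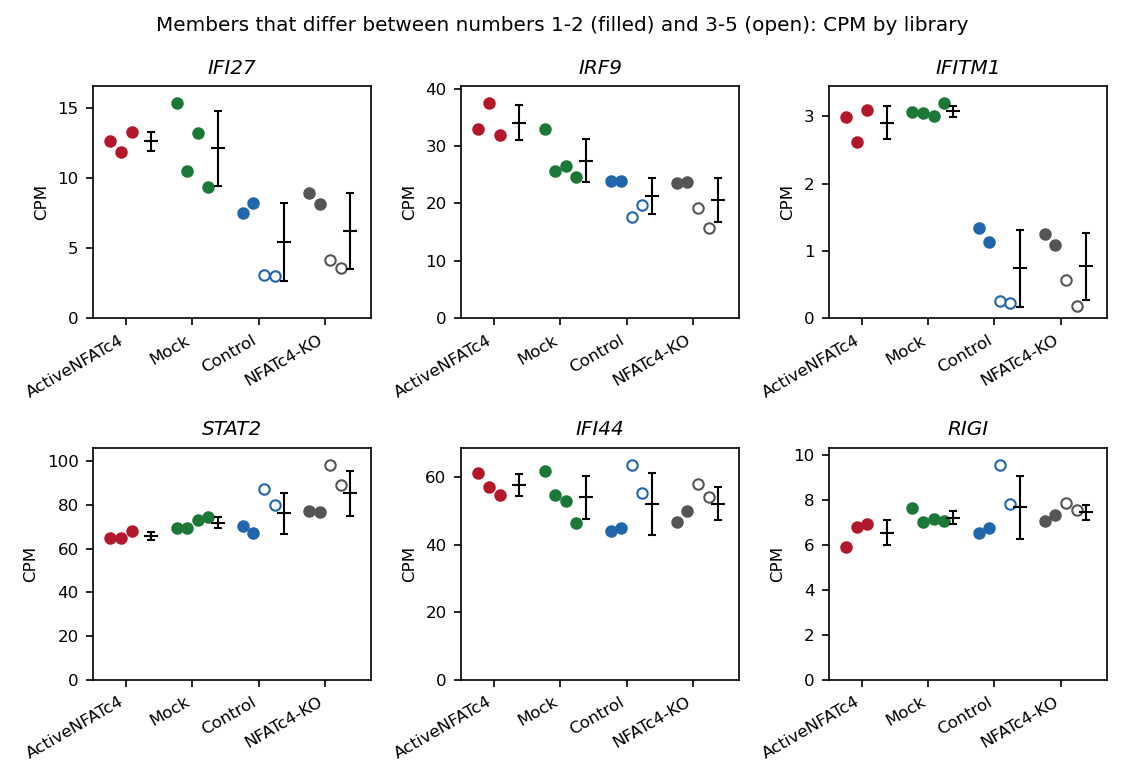
Levels in CPM (y axes, from 0) of 6 genes that separate the Control and NFATc4-KO libraries by number, in the 4 groups (x axes). Each circle is 1 library, filled for ActiveNFATc4, Mock and numbers 1 and 2, and open for the higher numbers, with the mean ± SD of each group beside it (n = 3 or 4). Open circles lie below the filled ones of Control and NFATc4-KO for IFI27, IRF9 and IFITM1 and above them for STAT2, IFI44 and RIGI.

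Genes of the pathway that are not among the 33 were counted from lists by role. The shares of all genes to set beside these counts were 28.8% higher and 26% lower in Mock against Control. They were 5.67% and 6.31% in NFATc4-KO against Control and 8.77% and 7.68% in ActiveNFATc4 against Mock. Of 9 interferon genes (IFNB1, IFNA1, IFNA2, IFNE, IFNK, IFNL1, IFNL2, IFNL3 and IFNG), none passed the filter, and the highest count in any library was 2, for IFNG in Control 3. RNA of these 9 genes was thus not detectable above 3 counts in any library, and other interferon genes were not counted. Of 10 receptor and JAK-STAT genes, 0 were called in ActiveNFATc4 against Mock by edgeR (0 at an unadjusted p under 0.05, by DESeq2 or by limma-voom), 1 was higher in NFATc4-KO than in Control (TYK2, adjusted p = 0.241 with the replicate number as a block, edgeR), and 5 were higher and 3 lower in Mock than in Control. The most abundant of these were JAK1, a kinase of all interferon receptors, at 129 ± 4.24 CPM in Mock and 136 ± 4.6 CPM in Control, and STAT3, at 132 ± 10.97 and 106 ± 3.87 CPM (SD, n = 4). STAT3 was higher in Mock by 0.32 ± 0.06 on the log2 scale (SE, adjusted p = 6.76e-05, edgeR). IFNAR1, a chain of the type I interferon receptor, and the kinase TYK2 fell by 0.15 and 0.14 in the same comparison (adjusted p = 0.0197 and 0.0366, edgeR), but neither passed against the Control libraries numbered 1 and 2 (adjusted p = 0.0798 and 0.893, edgeR).

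Of 15 genes of nucleic acid sensing, 11 were tested, and CGAS, STING1, ZBP1 and AIM2 were below the filter. In Mock against Control 3 were higher and 4 lower, counts near the shares of all genes (28.8% and 26%). MAVS, the adaptor of RIG-I and MDA5, fell by 0.39 (SE 0.06, adjusted p = 7.93e-06, edgeR), and ADAR and EIF2AK2, which edit and sense double-stranded RNA, fell by 0.18 and 0.20 (adjusted p = 0.00675 and 0.00986, edgeR). The calls of ADAR and EIF2AK2 did not hold against the Control libraries with higher numbers (adjusted p = 0.0963 and 0.114, edgeR). SAMHD1, which depletes nucleotides needed by retroviruses, was the 1 gene called in ActiveNFATc4 against Mock, where it fell by 0.32 (SE 0.06, adjusted p = 0.000435, edgeR). In NFATc4-KO against Control 0 were called by edgeR, DESeq2 or limma-voom, and 3 had an unadjusted p under 0.05 in edgeR. Of 25 other interferon-stimulated genes tested, 10 were higher and 3 lower in Mock than in Control, against 28.8% and 26% of all genes, with a median log2 fold change of 0.19. The 3 were PARP14, GBP1 and SAMD9L, the last at −0.82 ± 0.07 (SE, adjusted p = 2.35e-10, edgeR). Against the Control libraries numbered 1 and 2 alone 8 were higher and 1 lower, with 18.1% and 20.1% of all genes. Against those with higher numbers 11 and 5 were, with 30% and 27.6%. In NFATc4-KO against Control 0 were higher (1 at an unadjusted p, 0 by DESeq2 and limma-voom) and 4 lower, against 5.67% and 6.31% of all genes. These 4 (SAMD9L, TRIM22, GBP1 and APOL1) did not pass with the replicate number as a block (adjusted p = 0.145, 0.722, 0.129 and 0.0799, edgeR). In ActiveNFATc4 against Mock 0 were higher (2 at an unadjusted p, 0 by DESeq2 and 2 by limma-voom) and 2 lower, namely APOL1 by −0.21 and LGALS3BP by −0.17 on the log2 scale (adjusted p = 0.0378 and 0.0491, edgeR). LGALS3BP, a secreted glycoprotein, was 338, 280.5, 326 and 324 CPM in Mock, 255, 248, 225 and 211 CPM in the libraries of Control and NFATc4-KO numbered 1 and 2 and 80.03, 88.9, 91.4 and 87.9 CPM in those with higher numbers. These sets did not overlap, with a log2 fold change of Mock over Control of 1.12 ± 0.06 (SE, adjusted p = 2.4e-14, edgeR), or 0.33 ± 0.07 over numbers 1 and 2 and 1.91 ± 0.07 over the rest (SE).

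The other genes of MHC class I presentation differed between Mock and Control to an extent that depended on the Control libraries. Of 15, 14 were called higher and 1 lower in Mock than in Control, with a median log2 fold change of 0.26, against 28.8% and 26% of all genes. Against the Control libraries numbered 1 and 2 alone 7 were called higher and 1 lower, with 18.1% and 20.1% of all genes. Against those with higher numbers 14 and 1 were called, with 30% and 27.6% of all genes. ERAP2, a trimmer of peptides, was called in opposite directions, with −0.25 ± 0.06 against numbers 1 and 2 and 0.62 ± 0.06 against the rest (SE, adjusted p = 0.00268 and 1.31e-08, edgeR). HLA-E, HLA-F and HLA-G, the nonclassical heavy chains, had log2 fold changes of 0.71 ± 0.07, 1.23 ± 0.12 and 1.58 ± 0.20 (SE, adjusted p = 3.74e-09, 3.2e-09 and 5.18e-07, edgeR), and all 3 were called against each set of Control libraries. For HLA-E these were 0.93 and 0.48, for HLA-F 0.82 and 1.64 and for HLA-G 1.15 and 2.01 (log2, against numbers 1 and 2 and against the rest). Of 1220 windows of HLA-G, 15 were shared with HLA-E. The chaperone CANX was the 1 gene that fell, by 0.31 (SE 0.05, adjusted p = 3.94e-06, edgeR), and was not called against numbers 1 and 2 (−0.05 ± 0.06, SE, adjusted p = 0.516, edgeR), while PDIA3, of the peptide-loading complex, was higher by 0.24 ± 0.05 (SE, adjusted p = 0.000156, edgeR). In ActiveNFATc4 against Mock 2 were higher. These were HLA-F, with 14.2, 15.8 and 12.99 CPM in ActiveNFATc4 and 10.8, 10.8, 10.6 and 8.80 CPM in Mock, by 0.49 ± 0.11, and ERAP2 by 0.22 ± 0.05 (SE, adjusted p = 0.00192 and 0.00513, edgeR). In NFATc4-KO against Control HLA-E was higher by 0.25 ± 0.07 and ERAP2 lower, by −0.21 ± 0.05 (SE, adjusted p = 0.0190 and 0.00878, edgeR). Neither passed with the replicate number as a block (adjusted p = 0.117 and 0.274, edgeR). Of 8 MHC class II genes 5 were tested and 3 were higher in Mock than in Control, all at low levels, and 1 of these against the Control libraries numbered 1 and 2 alone. HLA-DPB1, 1 of these 3, passed the filter only through transfected libraries. HLA-DPA1 was 1.74 ± 0.336 CPM in Mock and 0.404 ± 0.296 CPM in Control, and HLA-DMB 2.01 ± 0.348 and 1.04 ± 0.518 CPM (SD, n = 4). CIITA, the master factor of MHC class II, was 0.470 ± 0.165 CPM in Mock and 0.535 ± 0.224 CPM in Control (SD, n = 4) and was not called.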

How the data were processed

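Per the paper's methods, the libraries were stranded and made from mRNA. After adaptor trimming (fastp), the authors mapped the reads to GRCh38.p13 by STAR, and featureCounts assigned them to genes. Versions, strand and multi-mapping settings are not given in the sources used here. Each deposited file holds the raw counts of 1 library for 21493 genes, of which 21400 were matched to a symbol.

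CPM with TMM factors and the quasi-likelihood tests with robust shrinkage came from edgeR 4.0.16 in R 4.3.3, and alternatives from limma 3.58.1 and DESeq2 1.42.0. Of these genes 14522 passed filterByExpr. All 15 libraries were fitted with 6 means (ActiveNFATc4, Mock, and Control and NFATc4-KO each split into numbers 1 and 2 and higher numbers), and Control and NFATc4-KO contrasts average both sets equally. The Benjamini-Hochberg adjustment ran over all genes tested, and calls were made under an adjusted p of 0.05. The genes, lists, split, tests and alternatives were chosen with earlier results of these data known. All 33 genes were to be named, and up to 4 of each other list, those called in ActiveNFATc4 against Mock first, then the most abundant, and HLA paralogs. A few genes of these lists are not reported here and stand outside the list counts and sums.

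Deviations of same-numbered NFATc4-KO and Control libraries from their group means correlated across genes (0.800, 0.778 and 0.701). Numbers 1, 2 and 3 fall into the same sets under both labels, so these values cannot tell pairing from the split by number. The main tests paired no libraries, and the replicate number served as a block in alternative fits only. Exon lengths and identical windows come from GENCODE and promoters from RefSeq. The fit was tested on simulated counts. The alternatives were other size factors, filters, tools, models and samples, a replicate block and each library left out.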

Additional observations from a re-analysis of the deposited data

Results flagged for a closer look

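In 93 tests of a group of 4 libraries for a library that stands apart (by Dixon's ratio of gap to range), 5 genes were flagged. Chance flags about 1 in 20 where the 4 libraries form 1 set. Control and NFATc4-KO each span both number sets, so that rate is only a rough guide for them. IFIT5 was 25.7 CPM in Control replicate 3 and 18.8 to 19.0 CPM in the other Control libraries. ISG20 was 1.42 CPM in NFATc4-KO replicate 5 and 1.59 to 1.62 CPM in the others. OAS3 was 102.6 CPM in Control replicate 1 against 90.8 to 92.7 CPM, and BST2 was 143 CPM in Control replicate 4 against 129 to 131 CPM. RIGI was 7.62 CPM in Mock replicate 1 against 7.03 to 7.13 CPM. The difference between NFATc4-KO and Control was also tested for a change between the number sets by an interaction term in edgeR, which called 0 of the 31 genes (lowest adjusted p = 0.256) and 3 at an unadjusted p under 0.05. The share of all genes at that unadjusted p is not given here.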

How the results depend on the processing

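Of 30 called results for single genes, 688 of 767 values under the alternatives kept their direction and call, 79 kept the direction only, and 0 reversed. In ActiveNFATc4 against Mock, the count of genes higher (2) was 4 with limma-voom, 0 with 4 group means, 1 with the replicate block, and 0 to 4 with 1 library left out. The count lower (1) was 2 with no filter and with limma-voom, 3 with the replicate block, and 1 to 2 with 1 library left out. In NFATc4-KO against Control, the count higher (1) was 0 with DESeq2 size factors, no filter, 4 group means, the 2 groups alone, the replicate block and either number set alone, and 0 to 1 with 1 library left out. The count lower (3) was 5 with limma-voom, 0 with 4 group means, the 2 groups alone, the replicate block and numbers 1 and 2, and 1 to 4 with 1 library left out. In Mock against Control, the count higher (20) was 13 in the 2 groups alone and 12 with the replicate block. The count lower (3) was 1 with the block and 7 against Control libraries with higher numbers. Shares of all genes called under these settings are not set beside these counts, which describe the listed genes alone. The causes were not tested. Fits of fewer libraries have fewer degrees of freedom, and the 4 group means take the split by number into the spread. Same-numbered Mock and Control libraries, and ActiveNFATc4 and Mock libraries, did not deviate together (−0.061 to −0.00203, and −0.0906 to 0.0990). For them too the replicate block was an alternative fit only.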
